A study of Homo sapiens with 10 samples.

Results

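Endocrine and angiopoietin-like factors that the liver makes or responds to were followed in HepG2 cells, a human hepatoma line, with and without tunicamycin. The group holds 6 genes, FGF21, FGF19, GDF15, ANGPTL4, ANGPTL6 and LECT2, which were taken by gene symbol from a table of 32738 genes. Cells received medium with 2 µg/ml tunicamycin, an inhibitor of N-linked glycosylation that causes endoplasmic reticulum (ER) stress, or plain medium, for 17 h. No genotype or transgene is named for either group, so the groups differ by the drug as far as the labels say. Replicate experiments were run on different days, with 5 libraries a condition, and the p-values therefore measure the spread between experiments of a single cell line.

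GDF15, FGF21 and FGF19 act as hormones. GDF15 is a distant member of the TGF-beta family that reduces food intake through its receptor GFRAL in the brainstem, while FGF21 and FGF19 need the co-receptor beta-Klotho (KLB) beside an FGF receptor. ANGPTL4 is an inhibitor of lipoprotein lipase, ANGPTL6 is a circulating angiopoietin-like protein and LECT2 is a secreted liver protein whose gene is a target of beta-catenin. In the integrated stress response, the kinase PERK (EIF2AK3) raises translation of the transcription factor ATF4, and GDF15 and FGF21 are among the genes known to respond to this pathway.

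The QuantSeq method reads the 3′ ends of mRNAs, so that a transcript gives about 1 fragment whatever its length and levels of different genes can be compared without a length term. The total per untreated library was 4242538 to 4888292 counts, and that per tunicamycin library 2234682 to 5029864, where replicates 5 and 4 were the shallowest. Values below are normalized counts, which are counts put on a common library size by TMM scaling, and tests are edgeR's quasi-likelihood test with Benjamini-Hochberg adjustment over the 12733 genes that passed a filter on low counts. Of these, 34.2% had an adjusted p below 0.05, 17.6% higher and 16.6% lower with tunicamycin. Of the differing genes 51.4% were higher, or 40.9% when libraries were scaled by total counts alone. HSPA5, the ER chaperone BiP, was 7.21 to 8.25 times higher in the 5 replicate pairs. The hepatocyte markers ALB, AFP and APOB had 11214, 11415 and 32551 normalized counts on average in untreated cells and 11519, 10209 and 18979 with tunicamycin. All 9 hepatocyte markers passed the filter, and 5 were lower. Of 12 markers of stellate cells, endothelium and leukocytes found in the table, 2 passed the filter, ACTA2 and CD68, with averages of 138 and 27.8 normalized counts in untreated cells. Exons of other genes on the same strand cover 413 of the last 500 bases of the CD68 transcript. Those on the opposite strand cover 349 of the last 500 of ACTA2, so counts of both may include other genes.

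Short windows of the promoters are shown first because they hold the stress response elements and TATA boxes found beside the members. RefSeq promoter sequences (GRCh38.p14) were matched by symbol for 5 of the 6 members, in 7 windows, with no entry for FGF19. The 250 bases before each start were searched on both strands for the C/EBP-ATF composite element TGATGNAAT, the AP-1 element TGAGTCA, the CRE TGACGTCA, the UPRE TGACGTGG, the ERSE and the TATA box TATAAA. The CRE and the UPRE share their first 6 letters but cannot match at the same place on a strand. Capitals mark the match, and each window is read in the direction of its gene.
FGF21, composite element on the reverse strand at -55 to -47, chr19:48755459-48755488, plus strand: aaacaccaggATTGCATCAgggaggaggag
LECT2, composite element on the reverse strand at -207 to -199, chr5:135955171-135955200, minus strand: agcactaaatATTCCATCAttcgcacgaac
GDF15, TATA box at -29 to -24, chr19:18386117-18386146, plus strand: aagtccggggacTATAAAggccggtccggc
ANGPTL4, TATA box at -29 to -24, chr19:8364114-8364143, plus strand: ccgcacccaactTATAAAaaccgtcctcgg

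The composite element occurred in 0.888% of 35116 promoters and the TATA box in 10.7%. The AP-1 element (4.2% of promoters), the CRE (1.65%), the UPRE (0.612%) and the ERSE (0.074%) had no match in the windows of the members. ANGPTL6 has 3 annotated promoters, 1 of which held a TATA box match on the reverse strand. These are matches of letters and not measured sites.

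GDF15 (ENSG00000130513) was the member that the data could measure. Its locus in GRCh38 is chromosome 19, 18374731 to 18389176, plus strand, and its last exon, from 18388286 to 18389176, holds the 3′ end from which the libraries are made. No exon of another gene overlaps the last 500 bases of its transcript. In untreated replicates 1 to 5, the deposited counts were 3757, 3399, 3327, 3245 and 3334. With tunicamycin they were 6422, 5977, 6129, 4234 and 3034. The raw count of tunicamycin replicate 5 was thus below every untreated count, in the library with the smallest total. As CPM, counts scaled to the same library total, the values were 769, 713, 686, 692 and 786 in untreated libraries and 1277, 1344, 1298, 1187 and 1358 with tunicamycin. On this scale the conditions did not overlap, with 1187 in the lowest tunicamycin and 786 in the highest untreated library.

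As normalized counts, GDF15 rose from 3094 ± 212 to 5817 ± 256 (SD, n = 5 a group). The log2 fold change was 0.91 with a standard error of 0.079 and a 95% interval of 0.74 to 1.08, which is 1.88-fold, and edgeR's quasi-likelihood test gave an adjusted p of 5.67e-08. Within replicate pairs the log2 ratio was 0.75, 0.97, 0.99, 1.00 and 0.85, so that GDF15 was higher in 5 of 5 pairs. An exact two-sided permutation test over all assignments of 5 and 5 libraries, which ignored these pairs, gave p = 0.00794, the smallest value that 5 against 5 allow. This change was above that of 92.5% of the genes tested, where 17.6% of all genes were called higher. By level GDF15 ranked 138 of 32738 genes in untreated cells and 73 with tunicamycin. In bulk RNA, a change in the share of cells that express a gene and a change in RNA per cell cannot be told apart.

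**Figure D1:**
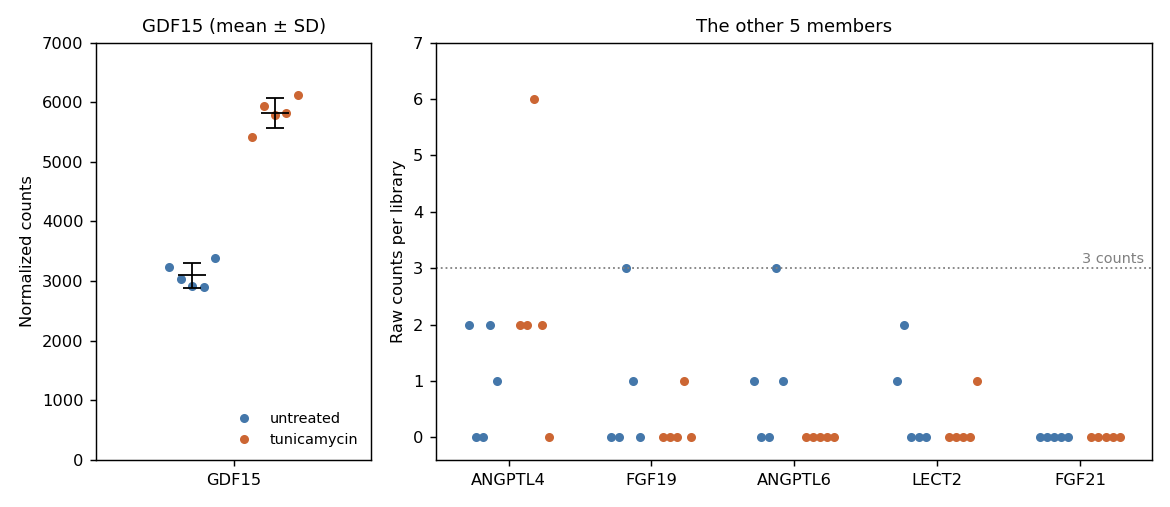
The left panel gives GDF15 in normalized counts per library from 0, with mean and SD as black bars, and the right panel gives raw counts of the other 5 members per library (blue untreated, orange tunicamycin, 5 points a group in the order of replicates). GDF15 is at 2907 to 3389 in untreated and 5424 to 6122 in tunicamycin libraries, and the highest raw count of any other member is 6.

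The increase of GDF15 was about as large without the shallow libraries. Without tunicamycin replicates 4 and 5 the log2 fold change was 0.89, and when single libraries were omitted in turn it stayed between 0.89 and 0.95. The value that lay farthest below was 0.83, obtained when libraries were scaled by total counts alone.

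**Figure D2:**
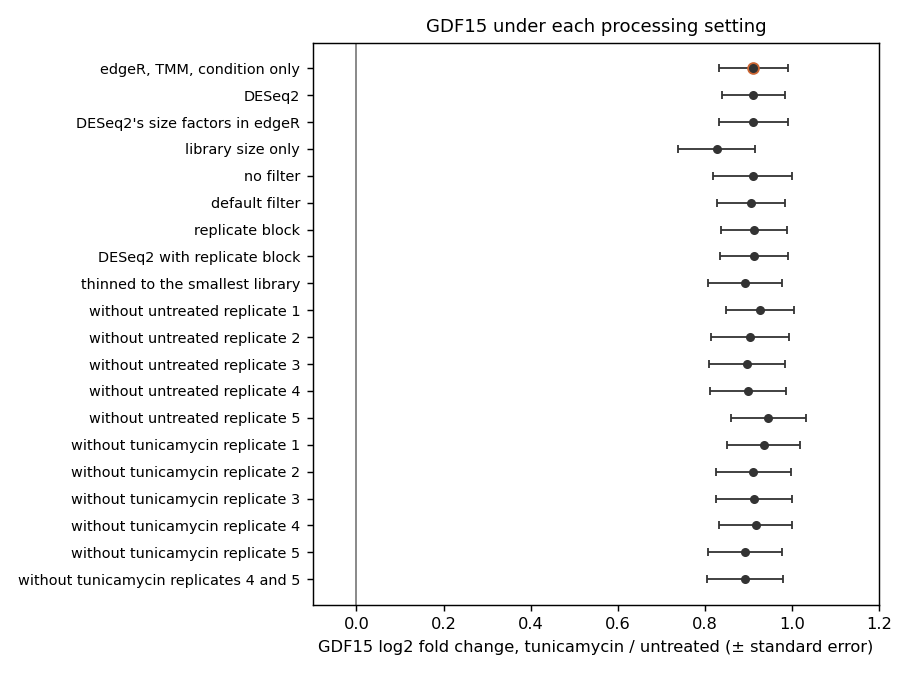
Each point is the log2 fold change of GDF15 between tunicamycin and untreated libraries under 1 processing setting, with bars of 1 standard error and the setting used for the text in orange at the top. The points lie between 0.83 and 0.95, all to the right of 0.

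The pattern of GDF15 over the 10 libraries was compared with that of 9706 genes that had at least 20 normalized counts on average, after each gene was centred on its untreated mean on the log2 scale. Nearness on this scale by itself favours genes whose log2 fold change is close to that of GDF15. SHMT2 was the nearest, with a root mean square difference of 0.0759 over the 10 libraries and a log2 fold change of 0.93. MTHFD1L followed with a difference of 0.0793 and a log2 fold change of 0.96, and EPB41L4A-AS1 with a difference of 0.0846 and a log2 fold change of 0.85. GDF15 was the most abundant of these 4 transcripts, as SHMT2 had 550 normalized counts in untreated cells, MTHFD1L 220 and EPB41L4A-AS1 245.

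The other 5 members were at or near the limit of detection. A count of 3 corresponds to 0.596 to 1.34 CPM in a single library, and to 0.128 and 0.15 CPM in the summed untreated and tunicamycin libraries. None of the 5 passed the filter on low counts, so none has an adjusted p in the comparison used here. GDF15 made up at least 99.8% of the counts of all 6 genes in every library. Genes this low are not unusual in the table, as 15320 genes (46.8%) had no count in any library and 19832 genes (60.6%) had a total of 17 counts or fewer, the total of ANGPTL4.

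FGF21 (ENSG00000105550, chromosome 19, 48755524 to 48758333, plus strand, GRCh38) was at 0 counts in each of the 10 libraries. The 3-count floor over a group is 0.128 CPM for untreated and 0.15 for tunicamycin cells, and the exact 95% Poisson intervals of 0 counts reach 0.157 and 0.184. With 3 counts over a group taken for FGF21, GDF15 was 5687-fold more abundant in untreated cells and 8599-fold with tunicamycin. The upper Poisson limits of FGF21 lie above 3 counts and so allow somewhat smaller ratios. No other gene overlaps FGF21, whose promoter window with the composite element is shown above. A response of FGF21 was not detectable at this depth.

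FGF19 (ENSG00000162344, chromosome 11, 69698238 to 69704022, minus strand), the ileal hormone that represses bile acid synthesis, had 0, 0, 3, 1 and 0 counts in untreated replicates 1 to 5 and 0, 0, 0, 1 and 0 with tunicamycin. The sums of 4 and 1 counts correspond to 0.171 CPM (exact 95% Poisson interval 0.0465 to 0.437) and 0.05 (0.00127 to 0.279). The intervals, which cover counting error only, overlapped, and the exact permutation test gave p = 0.722.

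ANGPTL4 (ENSG00000167772, chromosome 19, 8363289 to 8374370, plus strand) had 2, 0, 0, 2 and 1 counts in untreated libraries and 2, 2, 6, 2 and 0 with tunicamycin. The sums of 5 and 12 counts are 0.213 CPM (0.0693 to 0.498) and 0.6 (0.31 to 1.05), a ratio of 2.81 with a counting interval of 0.922 to 10.2. Tunicamycin replicate 3 gave 6 of the 12 counts, and the conditions overlapped (exact permutation test, p = 0.23). With no filter on low counts edgeR's quasi-likelihood test gave an adjusted p of 0.264, and in the 6 fits without a single library in which ANGPTL4 passed the filter the adjusted p was 0.154 to 0.340.

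ANGPTL6 (ENSG00000130812, chromosome 19, 10092338 to 10102678, minus strand) had 1, 0, 0, 3 and 1 counts in untreated libraries and 0 in all 5 tunicamycin libraries. The sum of 5 untreated counts is 0.213 CPM (0.0693 to 0.498), and the Poisson interval of the 0 counts with tunicamycin reaches 0.184. The ratio of tunicamycin to untreated had an upper counting limit of 1.28, so that an equal level is within the counting error. The exact permutation test gave p = 0.167, and edgeR without the filter gave an unadjusted p of 0.042 and an adjusted p of 0.128. Exons of SHFL on the opposite strand cover 442 of the last 500 bases of ANGPTL6, and SHFL had 1035 counts in all. Unless strand was used in counting, the few counts of ANGPTL6 may belong to SHFL. Reads of ANGPTL6 may in that case also have been left uncounted, so its counts may not bound its level.

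LECT2 (ENSG00000145826, chromosome 5, 135922279 to 135954983, minus strand) had 1, 2, 0, 0 and 0 counts in untreated libraries and 0, 0, 0, 0 and 1 with tunicamycin. The sums of 3 and 1 counts correspond to 0.128 CPM (0.0264 to 0.374) and 0.05 (0.00127 to 0.279), and the conditions overlapped (exact permutation test, p = 1). Its match to the composite element thus lies beside a gene with 4 counts in all.

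**Figure D3:**
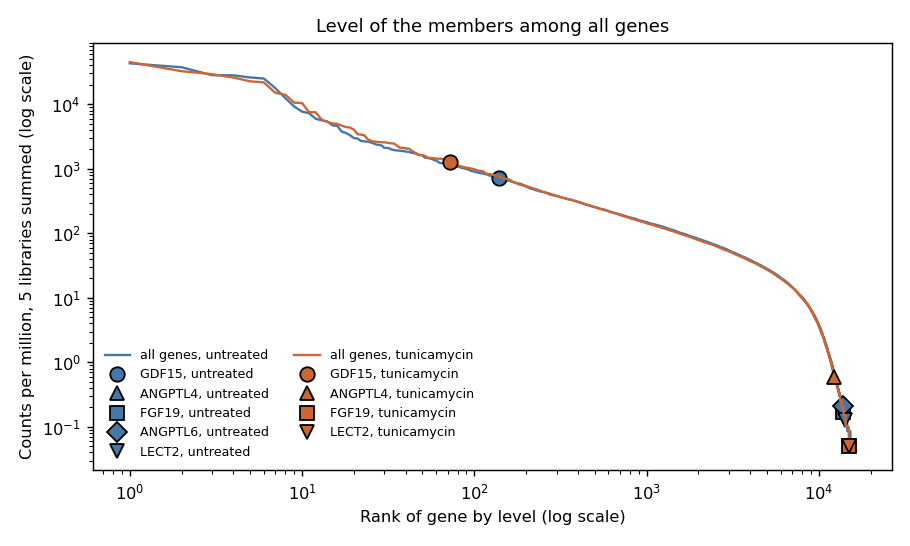
Lines give all genes with a count by rank (x, log scale) against CPM of the 5 libraries of a condition summed (y, log scale), and symbols give the members that had a count in that condition. GDF15 sits near 728 CPM in untreated and 1290 in tunicamycin cells, while FGF19, ANGPTL4, ANGPTL6 and LECT2 lie at or below 0.6.

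Receptors were examined next, beginning with that of GDF15. GFRAL and its signalling partner RET had 0 counts in all 10 libraries, as did KL (alpha-Klotho), FAP, the protease that cleaves FGF21, CD209, a receptor of LECT2, and TEK, the angiopoietin receptor. Exons on the opposite strand cover all of the last 500 bases of FAP, so its 0 may not show its level unless strand was used. Among the receptors and co-receptor for FGF21 and FGF19, KLB, FGFR4, FGFR1 and FGFR3 were expressed, and the first 3 of these were lower with tunicamycin. Of the 30 genes of the fibroblast growth factor list, 7 were tested, 4 were lower and 0 higher, with a median log2 fold change of -0.65 against -0.0034 over all genes tested. The calls were 57.1% of the tested genes of the list, against 34.2% over all genes tested.

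KLB, the co-receptor, had 462, 440, 494, 469 and 486 normalized counts in the untreated libraries and 132, 177, 183, 87.9 and 129 with tunicamycin. Every tunicamycin library was below every untreated library, and KLB fell from 470 ± 21.4 to 142 ± 39 (SD, n = 5 a group), a log2 fold change of -1.71 with a standard error of 0.14 (adjusted p = 2.71e-08). FGFR4, the main FGF receptor of hepatocytes, had 479, 397, 427, 404 and 433 normalized counts in untreated libraries and 262, 281, 255, 305 and 258 with tunicamycin. The conditions again did not overlap, and the log2 fold change of FGFR4 was -0.65 (standard error 0.091, adjusted p = 1.77e-05). FGFR1 fell from 181 ± 22.6 to 123 ± 10.8 (log2 fold change -0.55, adjusted p = 0.00135).

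FGFR3 differed between the replicates of tunicamycin. It had 477, 461, 452, 461 and 532 normalized counts in untreated libraries, 296, 308 and 327 in tunicamycin replicates 1 to 3, and 1528 and 1291 in replicates 4 and 5. The first 3 lay below every untreated library and the last 2 above. Over all libraries the log2 fold change was 0.63 (standard error 0.36, adjusted p = 0.193). Without tunicamycin replicates 4 and 5, a setting chosen after these values were seen, it was -0.61 (adjusted p = 0.00018). Without tunicamycin replicate 4 it was 0.17 (adjusted p = 0.723), without replicate 5 it was 0.34 (adjusted p = 0.51), and without replicate 1 it was 0.84 (adjusted p = 0.0479). With the replicate number as a block it was 0.27 in edgeR and 0.24 in DESeq2 (adjusted p = 0.399 and 0.768). Replicates 4 and 5 also had the lowest totals, and with totals thinned to that of the smallest library the log2 fold change was 0.64 (adjusted p = 0.179). Mitochondrial transcripts took 28.8% and 24.6% of the counts of these replicates, against 18.3% to 21.5% in tunicamycin replicates 1 to 3 and 22.7% to 25.2% in untreated libraries, and their part in the split was not tested. KLB had 132 to 183 normalized counts in tunicamycin replicates 1 to 3 and 87.9 to 129 in replicates 4 and 5, and GDF15 5424 to 5931 and 5817 to 6122. FGFR2 had a single count in all, and the ligand FGF11 was called lower (log2 fold change -1.89, adjusted p = 0.0325), but exons of other genes on the same strand cover all of its last 500 bases and the call was lost in 5 of the 10 fits without a single library.

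**Figure D4:**
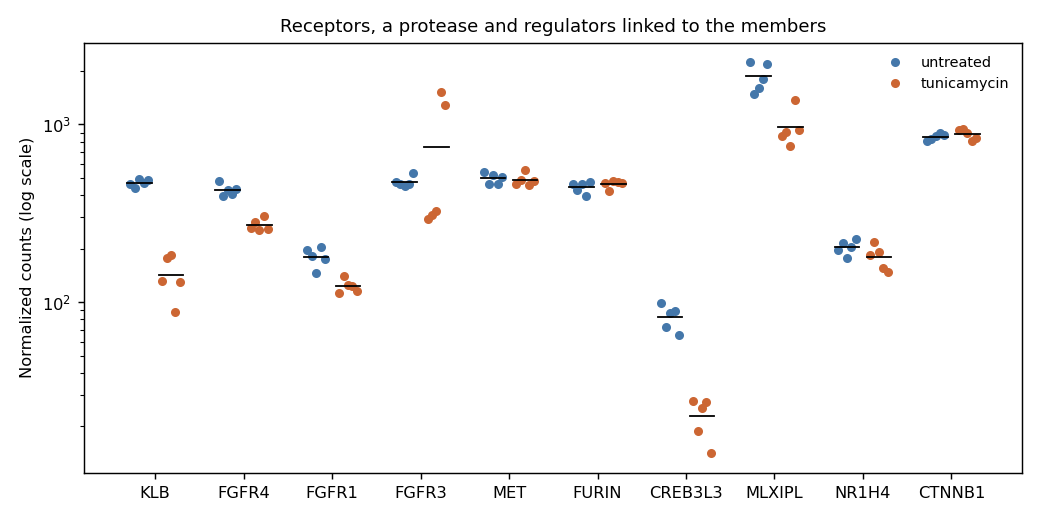
Normalized counts (log scale) per library of receptors, the protease FURIN and transcription factors linked to the members, with untreated libraries in blue, tunicamycin libraries in orange and the group mean as a black line. KLB, FGFR4, FGFR1, CREB3L3 and MLXIPL do not overlap between conditions, and FGFR3 splits into 3 tunicamycin libraries below and 2 above the untreated ones.

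The angiopoietin family had few measurable members. The list of 14 genes outside the 6 members also held receptors, CDH11 and FIBCD1, so its counts are not those of the family alone. Of the 14, 5 were tested, 2 were lower and 0 higher, with a median log2 fold change of -0.42. That is 40% called, near the 34.2% over all genes tested. ANGPTL1 fell from 59.6 ± 18.7 to 15.6 ± 6.54 normalized counts (log2 fold change -1.83, adjusted p = 4.89e-05). FIBCD1, a membrane receptor with a fibrinogen-like domain, had a log2 fold change of -2.19, but the call was lost without untreated replicate 4 or tunicamycin replicate 3, with an adjusted p of up to 0.0543. ANGPTL8, an inhibitor of lipoprotein lipase activity that is listed in the table under an older symbol, was added after its values were seen. It had 522 ± 47 normalized counts in untreated cells and 490 ± 49 with tunicamycin (log2 fold change -0.08, adjusted p = 0.523). ANGPTL2, also added after its values were seen, had 11.8 and 18.6 normalized counts (log2 fold change 0.69, adjusted p = 0.0892). Among the receptors, TIE1 had 1 count in all and LILRB2 had 0.

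ANGPTL4 and its relatives act on lipases, and 16 genes of that system were listed. Of the 13 tested, 6 were lower and 0 higher, with a median log2 fold change of -0.36. The called share was 46.2%, against 34.2% over all genes tested. APOA5, an activator of lipoprotein lipase, fell from 265 ± 22.7 to 91 ± 8.13 normalized counts (log2 fold change -1.55, adjusted p = 3.8e-09), and APOC3, an inhibitor of it, from 618 ± 26 to 255 ± 17.1 (-1.28, adjusted p = 1.27e-09). Hepatic lipase, LIPC, fell by 0.98 on the log2 scale (adjusted p = 0.000566), whereas endothelial lipase, LIPG, had 14.2 and 10.8 normalized counts and did not pass (adjusted p = 0.372). LPL and its anchor GPIHBP1 had 0 counts in all libraries. The proprotein convertases that cleave angiopoietin-like proteins did not pass the test. Their log2 fold changes were 0.06 for FURIN, 0.33 for PCSK5, -0.10 for PCSK6 and 0.28 for PCSK7, with adjusted p-values of 0.641, 0.151, 0.518 and 0.0922. Exons on the opposite strand cover all of the last 500 bases of PCSK6 and PCSK7, so their counts may include other genes unless strand was used.

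Other ligands of the TGF-beta family were set beside GDF15. Of 32 listed genes of this family and the GDF15 receptor complex, 16 had no count in any library and 8 were tested, of which 2 were lower and 0 higher, with a median log2 fold change of -0.14. The called share of 25% was below the 34.2% over all genes tested. With totals thinned to that of the smallest library, 1 was lower and 1 higher. BMP4, the most abundant of them, went from 3756 ± 687 to 2556 ± 540 normalized counts (log2 fold change -0.56, adjusted p = 0.00314), a level near that of GDF15 in untreated cells. The conditions overlapped for BMP4, where tunicamycin replicate 4 reached 3498. BMP8B had 6.91 and 1.70 normalized counts (log2 fold change -2.04, adjusted p = 0.00745), and this call was lost after thinning to the smallest library and in DESeq2 with the replicate block. INHBE, a liver activin subunit that was also added after its values were seen, had 386 ± 55.8 and 350 ± 25.5 normalized counts (log2 fold change -0.13, adjusted p = 0.344). Other hormones of the liver were mostly lower where they differed, with 1 higher and 7 lower of 18 tested and a median log2 fold change of -0.48. Of the 18, 44.4% were called, against 34.2% over all genes tested. SELENOP, the selenium carrier, was higher (log2 fold change 0.46, adjusted p = 0.00897), though its conditions overlapped. RARRES2 (chemerin) and SMOC1 were lower (-1.19 and -0.80, adjusted p = 2.91e-06 and 2.9e-06). Exons on the opposite strand cover all of the last 500 bases of SELENOP and 430 of those of INHBE. Counts of both may thus include other genes unless strand was used. Without tunicamycin replicates 4 and 5 the list of other liver hormones had 0 higher and 5 lower.

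The integrated stress response list, to which GDF15 belongs by background knowledge but in which it was not counted, was mostly higher. Of 27 genes, 26 were tested, 17 were higher and 1 lower, with a median log2 fold change of 0.78, somewhat below the 0.91 of GDF15. The called share was 69.2%, against 34.2% over all genes tested. The list also held ATF6, ERN1 and XBP1, which belong to the other branches of the response to ER stress. XBP1 was the gene called lower, so the counts and the median are not those of integrated stress response targets alone. The 8 tested genes that were not called had log2 fold changes from -0.21 (SLC7A5) to 0.27 (NUPR1). They were these 2, ATF4, ATF5, SESN2, STC2, DDIT4 and PHGDH, all but ATF4 named after their values were seen. CTH, the cysteine-forming enzyme, rose from 25.5 ± 6.27 to 89.8 ± 10.8 normalized counts (log2 fold change 1.82, adjusted p = 3.62e-07), and the transcription factor CEBPB from 145 ± 11 to 419 ± 66.5 (1.53, adjusted p = 9.46e-09). DDIT3, which encodes CHOP, had 137 to 186 normalized counts in untreated and 346 to 493 in tunicamycin libraries without overlap (log2 fold change 1.42, adjusted p = 2.1e-08). The mRNA of ATF4, whose regulation is mainly translational, was at 3597 ± 413 and 3510 ± 449 (log2 fold change -0.03, adjusted p = 0.823). ATF6 (0.73, adjusted p = 0.000114) and ERN1, which encodes the sensor IRE1 (1.34, adjusted p = 2.59e-05), were higher, and XBP1 fell by 1.01 (adjusted p = 6.92e-07). ATF3 (0.71, adjusted p = 0.0232) and EIF2AK3 (0.47, adjusted p = 0.0229) were called higher, but for both the call was absent in 4 of the 10 fits that omitted 1 library. CHAC1, a known target of the pathway that no other gene overlaps, had 0 counts in all libraries, as FGF21 did.

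Genes around FGF19 and FGF21 in bile acid and fasting metabolism were not all moved in 1 direction. In the bile acid list 12 of 19 genes were tested, 1 was higher and 4 lower, with a median log2 fold change of -0.16. The called share was 41.7%, near the 34.2% over all genes tested. With no filter on low counts 16 were tested, 3 were higher and 4 lower, and the median was 0.013. UGT2B4, a glucuronidating enzyme named here after its values were seen, did not pass the filter, with 0 counts in all untreated libraries and 5, 3, 1, 3 and 1 in tunicamycin replicates 1 to 5. NR1H4 (FXR), the nuclear receptor that induces FGF19 in the intestine, had 204 ± 18.6 and 180 ± 29.1 normalized counts (log2 fold change -0.17, adjusted p = 0.299). NR0B2 (SHP), a repressor induced by FXR, was higher (0.60, adjusted p = 0.000374), while the bile acid enzymes CYP8B1 (-2.72, adjusted p = 0.00295) and CYP27A1 (-0.82, adjusted p = 4.19e-06) were lower, the first from only 9.43 normalized counts.

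PPARA, the fasting regulator of FGF21 and ANGPTL4, had 95.1 ± 15.4 and 89.4 ± 18.4 normalized counts and did not pass the test (log2 fold change -0.10, adjusted p = 0.663). In its list 19 of 24 genes were tested, 6 were higher and 8 lower, with a median of -0.21. The called share was 73.7%, against 34.2% over all genes tested. CREB3L3, a liver transcription factor that acts with PPARA on FGF21, had 99, 72.2, 86.6, 88.7 and 65.1 normalized counts in untreated libraries and 27.9, 18.9, 25.5, 27.5 and 14.1 with tunicamycin. The conditions did not overlap, and CREB3L3 fell by 1.81 on the log2 scale (standard error 0.19, adjusted p = 6.89e-07). MLXIPL (ChREBP), which links sugar supply to FGF21, also fell, by 0.95 (adjusted p = 5.14e-05), and so did FABP1 (by 1.38, adjusted p = 3.02e-08). PPARG (1.42, adjusted p = 0.000235) and the acyl-CoA synthetase ACSL1 (1.38, adjusted p = 1.08e-05) were higher. PPARD was called higher from 13.9 normalized counts (1.07, adjusted p = 0.0121), but not after thinning to the smallest library or without tunicamycin replicates 4 and 5.

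For LECT2, the regulator CTNNB1 (beta-catenin) had 853 ± 34.9 and 881 ± 60.4 normalized counts (log2 fold change 0.05, adjusted p = 0.679), and MET, the receptor tyrosine kinase that LECT2 binds, 498 ± 34.3 and 487 ± 38.2 (-0.03, adjusted p = 0.801). The list of beta-catenin targets had 17 of 21 genes tested, with 2 higher and 8 lower and a median log2 fold change of -0.23. Of these 17 genes 58.8% were called, against 34.2% over all genes tested. NOTUM was higher (1.72, adjusted p = 0.000148), from 85.6 to 205 normalized counts in untreated to 167 to 698 in tunicamycin libraries, which overlapped, and SP5 was higher as well (0.98, adjusted p = 0.000927). In tunicamycin replicates 1 to 3 NOTUM had 167 to 446 normalized counts, and in replicates 4 and 5 it had 615 and 698. For SP5 these values were 385 to 775 and 1076 to 1126. RHBG and RNF43 were lower (-0.97 and -0.83, adjusted p = 8.69e-08 and 5.15e-07).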

How the data were processed

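HepG2 cells with and without tunicamycin were measured by 3′ RNA sequencing (QuantSeq) in 5 libraries a condition. The authors mapped reads to hg19 with Ensembl transcript definitions through the nf-core RNA-Seq pipeline at its defaults and deposited raw counts for 32738 genes. Which aligner, counter and strand setting those defaults used is not given in the sources used here. Groups and replicate numbers come from the labels, and all sample columns were matched by name.

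The filter was filterByExpr (minimum count 2, minimum total 10) and the scaling TMM. Conditions were compared with edgeR 4.0.16 in R 4.3.3 by its quasi-likelihood test, without other terms, with Benjamini-Hochberg adjustment over 12733 genes and a threshold of 0.05. The standard error is the absolute log2 fold change divided by the square root of F. Log2 ratios of pairs and single-gene permutation tests used a pseudocount of 0.5. The permutation tests of all members ignored the pairing of libraries by replicate number. Intervals at 95% for summed counts are exact Poisson or binomial intervals, and they and the 3-count floor cover counting error only. The totals of 2234682 to 5029864 counts per library limit the precision of genes with few counts.

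On data simulated from the real means for this comparison, edgeR called 200 of 200 changed genes among 12574, with 16 unchanged genes called. In the measured data 34.2% of the genes tested were called, and recovery at such a share was not tested. Every change put in was larger on the log2 scale than that of GDF15. Only genes above a minimum count were changed, and no effect of day was put in. Recovery of smaller changes, or of genes with few counts, was therefore not tested. The series text places replicates on separate days, so numbers pair libraries. Correlations of paired deviations from the group means were 0.317, 0.0171, 0.0391, 0.122 and 0.0864 over 10736 genes.

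Alternatives were DESeq2 1.42.0, its size factors, total counts alone, no filter, default minimums, the replicate block, thinning to the smallest library and leaving out each library. The removal of tunicamycin replicates 4 and 5 was chosen after seeing the data. Members, lists and the rule for named genes were chosen with earlier results of these data known. Named were the members, check genes, listed receptors, partners and regulators, from each list the 2 higher and 2 lower called genes with the largest log2 fold changes, and the 3 genes nearest to GDF15. Loci come from the GENCODE annotation of GRCh38 by Ensembl identifier, and no hg19 coordinate is given. PECAM1 was not found in the table by symbol. A listed gene is not reported here.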

Additional observations from a re-analysis of the deposited data

Results flagged for a closer look

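Among 125 groups of 5 values, 9 held a library well apart from the remaining 4. A rate of 1 in 20, which assumes normally distributed values, would give about 6.25. A group with a count in only 1 library is always flagged, so 9 against 6.25 cannot show an excess or its absence. For FGF19 this was tunicamycin replicate 4, with 1.37 normalized counts (1 count) against 0 in the others, and for LECT2 tunicamycin replicate 5, with 2.02 (also 1 count) against 0. Single counts likewise set TIE1 in untreated replicate 2 (0.892 against 0) and FGFR2 in untreated replicate 5 (1.02 against 0). AFP had 7554 normalized counts in tunicamycin replicate 1, against 10413 to 11099 in the others. In tunicamycin replicate 4, BMP4 had 3498 against 2204 to 2498, and MLXIPL had 1381 against 760 to 936. ATF6 had 174 in tunicamycin replicate 5, against 253 to 284, and ERN1 had 28.9 in untreated replicate 3, against 54.4 to 62. No value of GDF15 lay apart in this way. FGFR3, with 2 high tunicamycin libraries, is not found by this comparison of single libraries.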

How the results depend on the processing

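GDF15 kept its direction and its adjusted p below 0.05 under every alternative run, with log2 fold changes of 0.83 to 0.95. The count of differing genes was 4353, and 3716 to 4811 under the alternatives other than leaving out libraries, 3808 to 4488 with each library left out and 3476 without tunicamycin replicates 4 and 5. For the angiopoietin family list, the 2 calls became 1 with the default filter and after thinning, and 1 to 3 when single libraries were left out. For the TGF-beta family the 2 calls became 1 with the default filter and with the replicate block in DESeq2, and after thinning they were 1 higher and 1 lower. In the bile acid list, the median of -0.16 became 0.013 with no filter, with 3 higher and 4 lower. Without tunicamycin replicates 4 and 5, the other liver hormones had 5 calls in place of 8. The default filter tests fewer genes and thinning lowers depth, and the other causes were not tested. With the replicate block in edgeR, GDF15 had a log2 fold change of 0.91 and an adjusted p of 2.14e-09, and 4811 genes differed. The block ended the call of SHBG (adjusted p = 0.0601). FGF21, FGF19, ANGPTL4, ANGPTL6 and LECT2 gave too few counts for the test at this depth, and why they were low was not tested.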
